A study of Mus musculus with 8 samples.

Results

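The 7 genes described here make, package, take back and break down noradrenaline, the transmitter of sympathetic nerves. They were taken by gene name from the deposited tables: Th, Ddc and Dbh for synthesis, Slc18a2 and Slc6a2 for transport, and Maoa and Maob for breakdown. All 7 were found, among 56748 genes in the tables. Whole skin of 8 male mice was collected at 35 weeks of age and sequenced after selection of polyadenylated RNA. Of these mice 3 were homozygous for the tetracycline-regulated Npy allele Npytm2Rpa (NPY tet/tet, strain B6;129S4-Npytm2Rpa/J, here NPY-tet), and 5 were their wild-type siblings (NPY +/+). The labels name no treatment for either genotype, and neither doxycycline nor a promoter that drives the allele. Each library came from 1 mouse.

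In a sympathetic neuron, tyrosine hydroxylase (Th) turns tyrosine into DOPA, aromatic amino acid decarboxylase (Ddc) turns DOPA into dopamine, and dopamine beta-hydroxylase (Dbh) turns dopamine into noradrenaline inside the vesicle. The vesicular monoamine transporter VMAT2 (Slc18a2) fills the vesicles, the noradrenaline transporter NET (Slc6a2) takes released transmitter back into the axon, and the monoamine oxidases A and B (Maoa, Maob) oxidise amines at the outer mitochondrial membrane. The cell bodies of these neurons lie in ganglia outside the skin. Their axons reach dermal vessels, arrector pili muscles and hair follicles. Neuropeptide Y is released by many of the same axons. Several of the 7 genes are also used by other cells: mast cells store amines with VMAT2, and monoamine oxidases occur in most tissues.

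The libraries held 31370433 to 47495565 counts. Npy itself, the targeted gene, had 11802, 11864 and 10394 counts in NPY-tet replicates 1 to 3, and 5, 7, 5, 9 and 15 counts in wild-type replicates 1 to 5. Ribosomal RNA genes took 6.54% to 8.13% of counts in NPY-tet replicate 1 and in wild-type replicates 1, 2, 3 and 5 (rRNA-rich), and 0.0398% to 0.0759% in NPY-tet replicates 2 and 3 and wild-type replicate 4 (rRNA-poor). The labels do not give this division, and it overlaps in part with genotype. Differences were therefore also taken within each set, where 1 arm is a single mouse. The epidermal keratinocyte markers, 10 genes that begin with Krt5 and Krt14, summed to 13571 to 21642 CPM in NPY-tet and 15695 to 24792 CPM in wild-type libraries. Fibroblast markers, 10 genes that begin with Col1a1 and Col1a2, summed to 3097, 19002 and 26925 CPM in NPY-tet replicates 1 to 3 and to 11782 to 25544 CPM in wild-type libraries. NPY-tet replicate 1, which held an extreme value of Th, Slc18a2 and Maob, was thus also the lowest in the sum of fibroblast markers. Col1a1 and Col1a2 were at 423 and 508 CPM there, against 5670 and 6105 CPM in replicate 2 and 10022 and 8428 CPM in replicate 3. Not every marker varied so among NPY-tet mice. Pdgfra and Dcn varied little (66.7 ± 7.34 and 1136 ± 194 CPM), while Lum varied more (193 ± 115 CPM). No gene of the marker lists passed edgeR's test described next, whereas DESeq2 called Fos, Fosb, Egr1, Folr2, Elovl3, Lyve1, Ccl21a and Awat1 among them. Over all genes that DESeq2 tested, 0.299% were called.

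Expression is given as CPM, counts divided by library size after TMM scaling, and as the authors' FPKM where genes are compared with each other, since FPKM is also divided by gene length. Fold changes are log2 ratios (NPY-tet divided by wild-type) with a standard error (SE) from edgeR's quasi-likelihood test, and adjusted p-values are Benjamini-Hochberg values over the 18495 genes that passed the filter on low counts. Of the 7 genes 5 passed that filter and 2, Ddc and Dbh, did not.

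No difference between genotypes in the 5 tested genes was large enough against the spread of the mice to pass the test. By edgeR 0 of 5 passed an adjusted p of 0.05 and 0 of 5 had an unadjusted p under 0.05. The background was 0.00541% of tested genes at the adjusted threshold, which is Npy alone, and 5.98% at the unadjusted one. By DESeq2 0 of the members passed the adjusted threshold, against 0.299% of the genes it tested, and Dbh had no adjusted p. In 0 of the 7 did the NPY-tet and wild-type CPM ranges separate, against 3.78% of tested genes. Of the 5, 3 had higher fitted values in NPY-tet skin (Th, Slc18a2, Slc6a2) and 2 lower ones (Maoa, Maob). Their median log2 fold change, which is the value of Slc6a2, was 0.24, beside 0.0041 over all tested genes. In whole skin, a difference in the number of axons or cells and one in the RNA of each cannot be told apart.

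**Figure D1:**
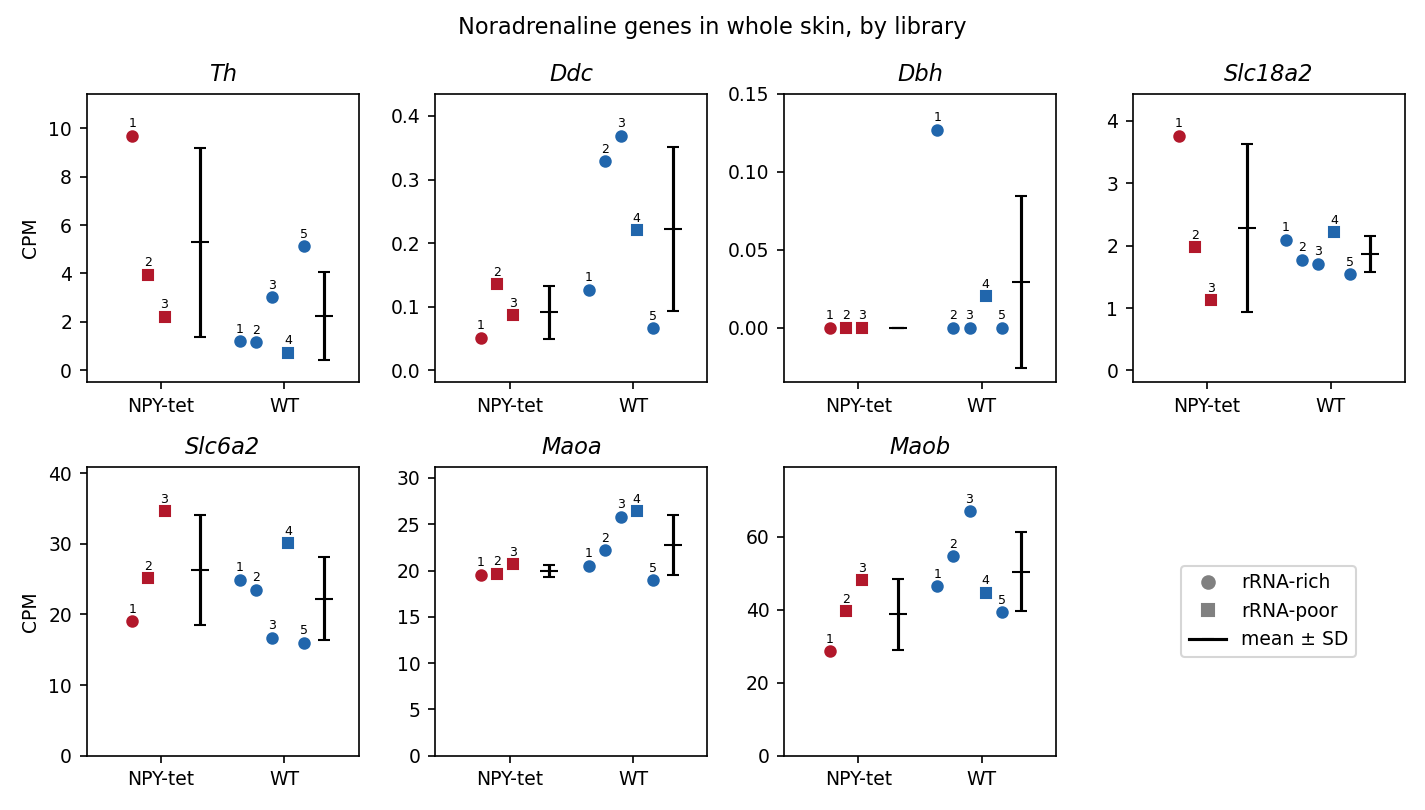
CPM of the 7 noradrenaline genes (y axis of each panel, linear) in each library, NPY-tet on the left and wild-type on the right, with the replicate number above each point. Circles are rRNA-rich and squares rRNA-poor libraries, and the black marks are the mean ± SD over 3 NPY-tet and 5 wild-type mice. The groups overlap in every panel, Th and Slc18a2 are highest in NPY-tet replicate 1, and Dbh is at 0 in all 3 NPY-tet libraries.

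The promoter sequences of Th and Dbh are shown because the first and the last enzyme of the pathway differed in what skin RNA held: Th was counted in every library, and Dbh was at 0 in 6 of 8. They are the 250 bases before the RefSeq transcript start, on the coding strand, in the GRCm38.p6 build (the deposited counts use mm39). Of the 7 genes 5 have an entry in this table. The Th window is chr7:142899996-142900245 on the minus strand and the Dbh window is chr2:27165257-27165506 on the plus strand. Capitals mark the letters TGACGTCA, the cyclic AMP response element (CRE), and TGANTCA, the AP-1 element, searched on both strands.
Th: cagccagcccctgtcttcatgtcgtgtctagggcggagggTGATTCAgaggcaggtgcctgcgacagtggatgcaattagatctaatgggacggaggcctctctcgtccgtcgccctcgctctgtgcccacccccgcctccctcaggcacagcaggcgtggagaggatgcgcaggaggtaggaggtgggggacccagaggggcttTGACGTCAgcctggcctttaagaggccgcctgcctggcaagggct
Dbh: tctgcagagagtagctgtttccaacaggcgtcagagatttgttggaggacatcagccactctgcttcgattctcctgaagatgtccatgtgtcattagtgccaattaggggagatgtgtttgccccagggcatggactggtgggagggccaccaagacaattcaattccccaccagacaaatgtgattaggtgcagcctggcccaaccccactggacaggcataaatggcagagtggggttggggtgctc

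The Th window holds TGACGTCA at base -45 and TGANTCA at base -210, counted from the transcript start, so the matches do not overlap, and the Dbh window holds neither. Of all 32851 windows of this length in RefSeq's table, 1.55% hold TGACGTCA and 6.75% hold TGANTCA. The Th window has 64.4% G and C with 13 CpG dinucleotides, and the Dbh window has 53.2% with 2. TGACGTCA was not found in the windows of Ddc, Slc18a2 and Maoa, and TGANTCA was found in 1 of the 2 windows of Ddc. A match is a run of letters and, like the lack of one, says nothing about binding in these mice. The part of these letters in the RNA levels of Th and Dbh was not tested.

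Tyrosine hydroxylase, the rate-limiting enzyme, had the highest coefficient of variation of the 5 tested genes, 73.9% among NPY-tet and 81.3% among wild-type mice. Th (ENSMUSG00000000214) lies on the minus strand of chromosome 7 at 142446489 to 142484865 in mm39. It had 376, 146 and 77 counts in NPY-tet replicates 1 to 3, which is 9.68, 3.96 and 2.22 CPM. In wild-type replicates 1 to 5 it had 38, 46, 90, 37 and 153 counts, which is 1.21, 1.16, 3.02, 0.740 and 5.12 CPM. NPY-tet replicate 1 was the highest of the 8 mice and wild-type replicate 5 the next, so that the groups overlapped although wild-type replicates 1, 2 and 4 lay below all NPY-tet mice. The ratio of the highest to the lowest mouse was 4.36 among NPY-tet and 6.92 among wild-type mice.

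The mean of Th was 5.29 ± 3.91 CPM in NPY-tet and 2.25 ± 1.83 CPM in wild-type skin (SD, n = 3 and 5). Its log2 fold change was 1.24 (SE 0.68) with a 95% interval of -0.30 to 2.78 and an edgeR adjusted p of 0.796. Without NPY-tet replicate 1 the log2 fold change was 0.47 (edgeR adjusted p = 1.00), and without wild-type replicate 5 it was 1.81 (edgeR adjusted p = 0.403). In every other alternative it was above 0 as well, up to 2.04, with adjusted p-values of 0.139 or more. Among rRNA-rich libraries it was 1.90 (edgeR adjusted p = 0.411), with NPY-tet replicate 1 as the only NPY-tet mouse. Among rRNA-poor libraries it was 2.04 (edgeR adjusted p = 0.139), with wild-type replicate 4, the lowest of all mice, as the only wild-type mouse. The lone mouse of each set is assumed to vary like the others.

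Hair follicle markers varied between these libraries too. The 14 hair matrix and shaft genes in the file, among them the hair keratins Krt31 and Krt33a, summed to 2228, 4342 and 387 CPM in NPY-tet replicates 1 to 3. They summed to 318, 9.27, 16.5, 16.1 and 6480 CPM in wild-type replicates 1 to 5. The 3 libraries with the most Th (NPY-tet replicates 1 and 2 and wild-type replicate 5) were also the 3 with the most hair keratin RNA. Wild-type replicate 3, with 3.02 CPM of Th, had almost none. All 14 were tested, 14 had higher fitted values in NPY-tet skin, 0 passed the test, and their median log2 fold change was 0.83. Krt31 was at 27.4, 88.2 and 4.64 CPM in NPY-tet replicates 1 to 3 and at 2.60, 0.152, 0.335, 0.0800 and 129.8 CPM in wild-type replicates 1 to 5.

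Melanocyte markers, listed because pigment cells also start from tyrosine, summed to 44.0, 115 and 26.9 CPM in NPY-tet replicates 1 to 3 and to 36.3, 23.8, 26.8, 25.7 and 127 CPM in wild-type replicates 1 to 5. Of the 10 markers 8 were tested, 8 had higher fitted values in NPY-tet skin and 0 passed, with a median of 0.51. Tyr, the tyrosinase of pigment synthesis, had 0 counts in wild-type replicates 2 and 4. Immediate early genes, 10 genes led by Fos and Fosb that cells induce quickly when stimulated, summed to 1058, 989 and 750 CPM in NPY-tet replicates 1 to 3, and to 703, 588, 637, 584 and 648 CPM in wild-type replicates 1 to 5. These groups did not overlap. By edgeR 7 of the 10 had an unadjusted p under 0.05, against 5.98% of all tested genes, and 0 passed the adjusted threshold. By DESeq2, which called 0.299% of the genes it tested, 3 passed. They were Fos (adjusted p = 2.48e-07), Fosb (adjusted p = 0.000302) and Egr1 (adjusted p = 0.00545). The part of any of these in the Th values was not tested.

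**Figure D2:**
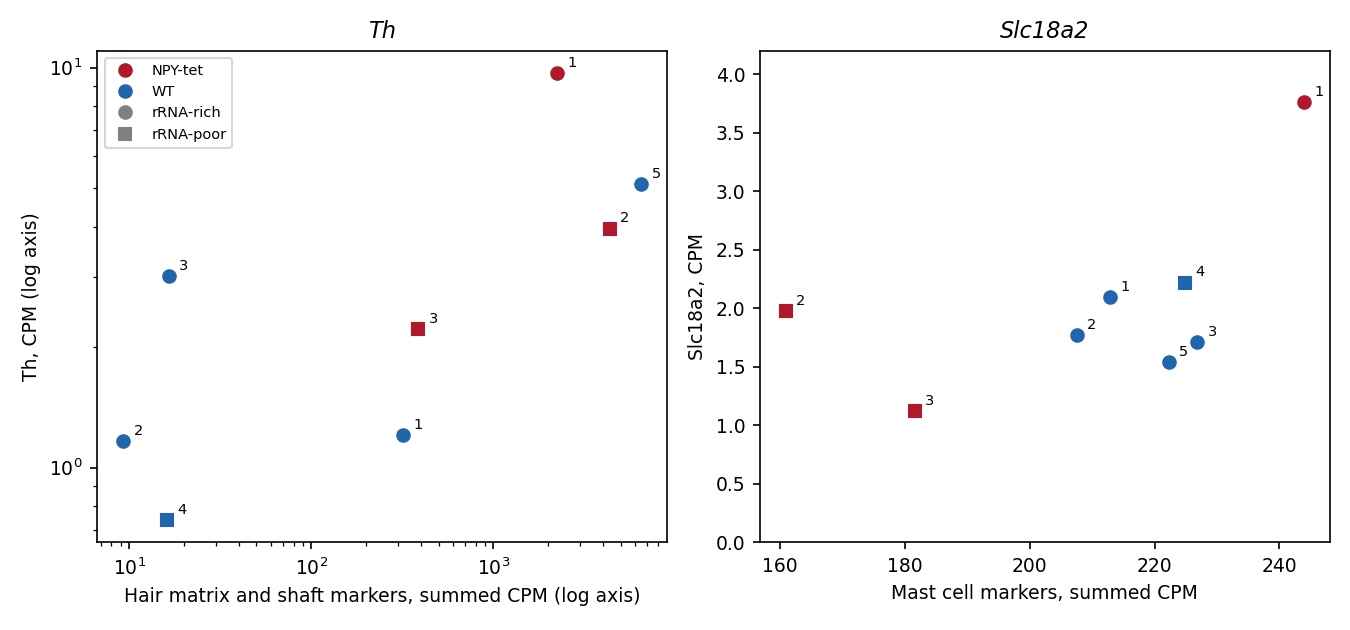
Th against the summed CPM of 14 hair matrix and shaft markers (left, both axes logarithmic) and Slc18a2 against the summed CPM of 14 mast cell markers (right, linear axes), 1 point per library with its replicate number, NPY-tet in red and wild-type in blue, circles rRNA-rich and squares rRNA-poor. On the left NPY-tet replicates 1 and 2 and wild-type replicate 5 are at the upper right, and on the right NPY-tet replicate 1 is highest on both axes.

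The remaining synthesis enzymes were close to the limit of detection. Ddc (ENSMUSG00000020182, chromosome 11, 11764101 to 11848144, minus strand) had 2, 5 and 3 counts in NPY-tet replicates 1 to 3, and 4, 13, 11, 11 and 2 counts in wild-type replicates 1 to 5. The groups overlapped, with the lowest value of 0.0515 CPM in NPY-tet replicate 1, the library with the most Th. Over the group it reached 0.0906 CPM in NPY-tet (10 counts, 95% exact Poisson interval 0.0434 to 0.167) and 0.227 CPM in wild-type skin (41 counts, 0.163 to 0.308). These intervals cover counting error only. In the edgeR fit with no filter on low counts its log2 fold change was -1.26 (SE 0.94, adjusted p = 0.750), and it ranged from -1.64 to -0.97 with 1 library left out.

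Dbh (ENSMUSG00000000889, chromosome 2, 27055245 to 27073212, plus strand), the enzyme that makes noradrenaline itself, had 0 counts in all 3 NPY-tet libraries. A count of 0 over that group allows up to 0.0272 CPM (a floor of 3 counts), and the two-sided exact Poisson upper limit, computed as for Ddc, is 0.0334 CPM. In wild-type skin it had 4, 0, 0, 1 and 0 counts in replicates 1 to 5, 5 in all, which is 0.0277 CPM with an exact Poisson interval of 0.00898 to 0.0645. No difference was detectable at this depth, and no fold change is given.

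The planned ratio of Dbh to Th carries no information beyond Th, since Dbh was at 0 in 6 of 8 libraries. With 0.1 FPKM added its log2 was -4.29 ± 1.01 in NPY-tet and -2.96 ± 1.13 in wild-type mice, a difference of -1.33 (two-sided exact permutation p = 0.161, adjusted p = 0.321 over 2 ratios). The smallest p that 3 against 5 mice can give is 0.0179.

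Markers of the sympathetic neuron itself were sparse as well. Phox2a, a transcription factor of autonomic neurons, had 3, 0 and 6 counts in NPY-tet replicates 1 to 3 and 0, 9, 12, 10 and 1 in wild-type replicates 1 to 5. Of 10 sympathetic identity genes 6 were tested, 1 had a higher and 5 a lower fitted value in NPY-tet skin, and 0 passed, with a median of -0.15. Gata3, which skin epithelium and immune cells also express, made up most of their sum of 176 to 208 CPM in NPY-tet and 160 to 204 CPM in wild-type libraries, at means of 143 and 131 CPM. Axon and synapse genes summed to 11.9 to 18.1 CPM in NPY-tet and 9.98 to 17.9 CPM in wild-type libraries. Of those 14 genes 7 were tested, 3 higher and 4 lower, 0 passed and the median was -0.30. The neuronal tubulin Tubb3 stood at 5.85, 9.86 and 4.24 CPM in NPY-tet replicates 1 to 3 and at 2.54, 2.05, 3.18, 2.74 and 11.3 CPM in wild-type replicates 1 to 5. Its highest values were in the libraries richest in hair keratin. Uchl1, of the same list, stood at 1.83, 1.90 and 1.38 CPM in NPY-tet mice and 2.25, 1.52, 3.25, 2.14 and 1.37 CPM in wild-type mice, in replicate order. It was lowest in wild-type replicate 5, where Tubb3 was highest. The log2 fold change was 0.61 for Tubb3 and -0.30 for Uchl1.

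Sensory neuron markers, in which Scn9a had 0 counts in every library, summed to 6.03 to 7.56 CPM in NPY-tet and 6.17 to 9.67 CPM in wild-type libraries, with 0 of 5 tested members past the threshold. Schwann cell markers, from the glia that wrap skin axons, summed to 450 to 487 CPM in NPY-tet and 455 to 560 CPM in wild-type libraries. All 10 were tested, 9 had lower and 1 a higher fitted value, and 0 passed, with a median of -0.12. By edgeR 4 of the 10 had an unadjusted p under 0.05, against 5.98% of all tested genes.

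The vesicular transporter was low, and its NPY-tet values were spread wider than the wild-type ones. Slc18a2 (ENSMUSG00000025094, chromosome 19, 59249328 to 59284444, plus strand) had 146, 73 and 39 counts in NPY-tet replicates 1 to 3, which is 3.76, 1.98 and 1.12 CPM. In wild-type replicates 1 to 5 it had 66, 70, 51, 111 and 46 counts, which is 2.09, 1.77, 1.71, 2.22 and 1.54 CPM. The NPY-tet mice held both the highest and the lowest of the 8 values, on either side of the wild-type range. The means were 2.29 ± 1.34 CPM in NPY-tet and 1.87 ± 0.281 CPM in wild-type skin.

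The log2 fold change of Slc18a2 was 0.29 (SE 0.36, 95% interval -0.50 to 1.09, edgeR adjusted p = 0.878). It was -0.26 without NPY-tet replicate 1 (edgeR adjusted p = 1.00). It was 1.10 among rRNA-rich libraries (edgeR adjusted p = 0.294), which hold that mouse, and -0.53 among rRNA-poor ones (edgeR adjusted p = 0.999). Without NPY-tet replicate 3 it was 0.62 (edgeR adjusted p = 0.437). Mast cell markers summed to 244, 161 and 182 CPM in NPY-tet replicates 1 to 3 and to 213, 208, 227, 225 and 222 CPM in wild-type replicates 1 to 5. NPY-tet replicate 1 was thus highest there as well. The lowest mice differed: NPY-tet replicate 2 was lowest in mast cell markers and NPY-tet replicate 3 in Slc18a2. The protease Cpa3 was at 23.2, 15.7 and 17.2 CPM in NPY-tet mice and 17.6, 20.6, 19.3, 16.8 and 21.2 CPM in wild-type mice, in replicate order. The receptor Kit was at 24.3, 16.6 and 10.6 CPM in NPY-tet mice and 11.1, 10.4, 11.8, 8.80 and 20.7 CPM in wild-type mice. Kit was highest in NPY-tet replicates 1 and 2 and wild-type replicate 5, the libraries richest in hair keratin. Of the 14 mast cell markers 7 had higher and 7 lower fitted values and 0 passed, with a median of 0.062. By edgeR 3 had an unadjusted p under 0.05, against 5.98% of all tested genes. Of these 3 markers Mcpt4 and Cma1 were lower in NPY-tet skin (log2 fold change -0.56 and -0.39) and Mrgprb1 was higher (0.85). The part of mast cells in the Slc18a2 values was not tested.

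The noradrenaline transporter was measured well above the counting limit in every mouse. Slc6a2 (ENSMUSG00000055368, chromosome 8, 93686707 to 93728295, plus strand) had 740, 928 and 1201 counts in NPY-tet replicates 1 to 3, which is 19.1, 25.1 and 34.6 CPM. Wild-type replicates 1 to 5 had 785, 928, 498, 1505 and 478 counts, which is 24.9, 23.5, 16.7, 30.1 and 16.0 CPM. NPY-tet replicate 3 was highest and wild-type replicate 5 lowest, and the groups overlapped over most of their range. The means were 26.3 ± 7.85 CPM in NPY-tet and 22.2 ± 5.92 CPM in wild-type skin.

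The log2 fold change of Slc6a2 was 0.24 (SE 0.24, 95% interval -0.29 to 0.77, edgeR adjusted p = 0.853). It came to -0.068 among rRNA-rich libraries (edgeR adjusted p = 0.966) and -0.020 among rRNA-poor ones (edgeR adjusted p = 0.999). Each of these values rests on a single mouse in 1 arm, NPY-tet replicate 1 and wild-type replicate 4. Without NPY-tet replicate 3 it was -0.0052 (edgeR adjusted p = 0.994). The 3 highest mice, NPY-tet replicates 2 and 3 and wild-type replicate 4, are the 3 rRNA-poor libraries, although wild-type replicate 1 lay close below them. Slc6a2 and Th did not rank the mice alike: NPY-tet replicate 1 and wild-type replicate 5, highest in Th, were among the 3 lowest in Slc6a2.

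**Figure D3:**
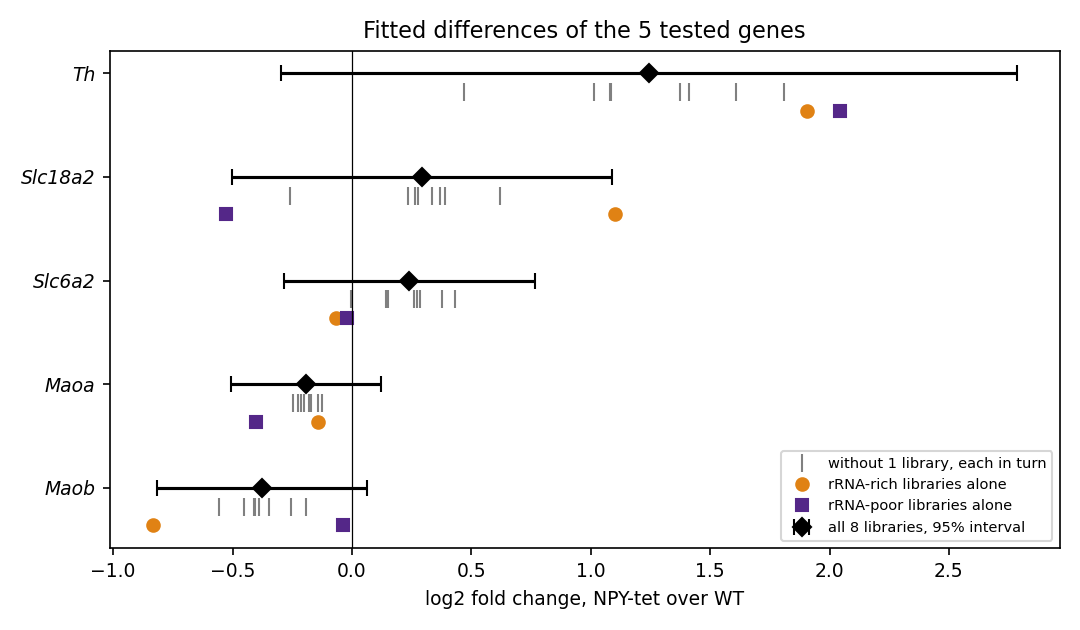
Log2 fold change of NPY-tet over wild-type (x axis) for the 5 tested genes. Diamonds with bars are the fit to all 8 libraries with its 95% interval, grey ticks the fits without 1 library each, and orange circles and purple squares the rRNA-rich and rRNA-poor libraries alone. Every interval crosses 0, and the values within the 2 rRNA sets lie on opposite sides of 0 for Slc18a2, at 1.10 and -0.53.

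The degrading enzymes had the smallest SE of the log2 fold change among the 5 tested genes. Maoa (ENSMUSG00000025037, X chromosome, 16485937 to 16554057, plus strand), which prefers noradrenaline and serotonin, was at 19.5, 19.6 and 20.7 CPM in NPY-tet replicates 1 to 3. It was at 20.5, 22.2, 25.8, 26.4 and 19.0 CPM in wild-type replicates 1 to 5. The NPY-tet mice lay close together at the lower end of the wild-type range. The means were 20.0 ± 0.623 CPM in NPY-tet and 22.8 ± 3.26 CPM in wild-type skin, and the log2 fold change was -0.19 (SE 0.14, 95% interval -0.50 to 0.12, edgeR adjusted p = 0.813). It was -0.14 among rRNA-rich and -0.40 among rRNA-poor libraries.

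Maob (ENSMUSG00000040147, X chromosome, 16575521 to 16683605, minus strand), which prefers phenylethylamine, is the neighbour of Maoa, with 21463 bases between the ends of the pair. It was at 28.7, 39.6 and 48.1 CPM in NPY-tet replicates 1 to 3 (1113 to 1668 counts). In wild-type replicates 1 to 5 it was at 46.4, 54.6, 67.0, 44.7 and 39.3 CPM (1175 to 2236 counts). NPY-tet replicate 1 was the lowest of all mice and wild-type replicate 3 the highest, while NPY-tet replicate 3 lay above 3 of the 5 wild-type mice. The means were 38.8 ± 9.74 CPM in NPY-tet and 50.4 ± 10.8 CPM in wild-type skin.

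The log2 fold change of Maob was -0.38 (SE 0.20, 95% interval -0.82 to 0.063, edgeR adjusted p = 0.796). Without NPY-tet replicate 1 it was -0.19 (edgeR adjusted p = 1.00). It was -0.83 among rRNA-rich libraries (edgeR adjusted p = 0.236), where that mouse is the only NPY-tet one, and -0.038 among rRNA-poor ones (edgeR adjusted p = 0.999). White adipocyte markers, all 10 of which had lower fitted values with 0 past the threshold and a median of -0.55, summed to 4777, 3460 and 7848 CPM in NPY-tet replicates 1 to 3. They summed to 6402, 7521, 8596, 9366 and 5704 CPM in wild-type replicates 1 to 5. The 2 NPY-tet mice with the lowest adipocyte sums also had the lower NPY-tet values of Maob, but in the reverse order. Replicate 2 had the lowest sum and replicate 1 the lowest Maob. Among wild-type mice replicate 5 was lowest in both. Wild-type replicate 4, with the highest sum, had 44.7 CPM of Maob, towards the lower end of the wild-type range of 39.3 to 67.0 CPM. The part of adipocytes in the Maob values was not tested.

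Within a library the Maoa to Maob ratio does not depend on library size. On the FPKM scale it was 0.456, 0.332 and 0.288 in NPY-tet replicates 1 to 3 and 0.296, 0.272, 0.258, 0.396 and 0.323 in wild-type replicates 1 to 5. Its log2 averaged -1.49 ± 0.34 in NPY-tet and -1.69 ± 0.24 in wild-type mice, a difference of 0.21 (two-sided exact permutation p = 0.375, adjusted p = 0.375 over 2 ratios). The difference was 0.67 among rRNA-rich libraries and -0.35 among rRNA-poor ones.

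Compared per length, the 7 genes kept a nearly fixed order in every mouse. Over all 8 libraries the mean was 16.3 FPKM for Maob, 5.15 for Maoa, 3.73 for Slc6a2, 1.42 for Th, 0.383 for Slc18a2, 0.0384 for Ddc and 0.00669 for Dbh. Maob stood above Maoa, and Slc18a2 above Ddc, in 8 of 8 libraries. The steps between held in 7 of 8. Slc6a2 exceeded Maoa in NPY-tet replicate 3, Th exceeded Slc6a2 in NPY-tet replicate 1, Slc18a2 exceeded Th in wild-type replicate 4 and Dbh exceeded Ddc in wild-type replicate 1. By genotype, neighbours in this order were mostly apart by more than their spread, with exceptions. In NPY-tet skin Maoa (4.73 ± 0.155 FPKM) and Slc6a2 (4.13 ± 1.24 FPKM) were within 1 SD of Slc6a2. In wild-type skin Th (0.942 ± 0.769 FPKM) and Slc18a2 (0.353 ± 0.0527 FPKM) were within 1 SD of Th.

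The rest of the pathway was followed in 4 lists of 37 genes, of which 32 were tested. By edgeR 0 of the 32 passed, and the smallest adjusted p was 0.346. Of the 32, 4 had an unadjusted p under 0.05, against 5.98% of all tested genes. Fitted values were higher for 13 and lower for 19, with a median of -0.11. In the list of synthesis and cofactor genes 10 of 11 were tested, 5 higher and 5 lower, with a median of -0.028. Spr and Qdpr, which make and recycle the cofactor tetrahydrobiopterin, stood at 47.5 ± 7.07 and 37.7 ± 8.60 CPM in NPY-tet skin, against 51.9 ± 10.2 and 49.5 ± 9.80 CPM in wild-type skin. Cyb561, a cytochrome that supplies electrons to the vesicle interior, stood at 51.0 ± 10.9 CPM in NPY-tet and 54.0 ± 11.6 CPM in wild-type skin.

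In the list of other vesicle and uptake transporters 4 of 8 were tested, 3 higher and 1 lower, with a median of 0.15. Slc22a3, a low-affinity uptake carrier of non-neuronal cells, stood at 25.1 ± 9.27 CPM in NPY-tet and 32.5 ± 5.01 CPM in wild-type skin. The serotonin transporter gene Slc6a4 stood at 28.8 ± 7.37 CPM in NPY-tet and 23.5 ± 2.91 CPM in wild-type skin. The plasma membrane monoamine transporter gene Slc29a4 stood at 0.291 ± 0.0515 CPM in NPY-tet and 0.220 ± 0.176 CPM in wild-type skin, and the dopamine transporter gene Slc6a3 had at most 1 count in an NPY-tet and 3 counts in a wild-type library.

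In the list of breakdown and conjugation enzymes 9 of 9 were tested, 2 higher and 7 lower, with a median of -0.25. The aldehyde enzymes Akr1a1 and Aldh2 stood at 286 ± 62.4 and 331 ± 99.7 CPM in NPY-tet skin, against 362 ± 49.1 and 422 ± 89.0 CPM in wild-type skin. Aoc3, an amine oxidase of adipocytes and vascular smooth muscle, stood at 266 ± 160 CPM in NPY-tet and 472 ± 76.3 CPM in wild-type skin, with a log2 fold change of -0.83 (SE 0.32, edgeR adjusted p = 0.795).

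In the list of adrenergic receptors, the targets of noradrenaline, 9 of 9 were tested, 3 higher and 6 lower, with a median of -0.095. The receptor Adrb3, known from adipocytes, had the smallest p of the 32 genes. It was at 29.3, 34.6 and 35.7 CPM in NPY-tet replicates 1 to 3 and at 55.0, 79.9, 44.4, 61.8 and 67.8 CPM in wild-type replicates 1 to 5. The groups did not overlap in 1 of the 32 genes, Adrb3, against 3.78% of all tested genes. The log2 fold change of Adrb3 was -0.90 (SE 0.18) with an edgeR adjusted p of 0.346. By DESeq2 it passed (adjusted p = 0.00509), against 0.299% of the genes DESeq2 tested. The alpha-1 receptor Adra1d stood at 3.10 ± 1.71 CPM in NPY-tet and 4.93 ± 1.90 CPM in wild-type skin.

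**Figure D4:**
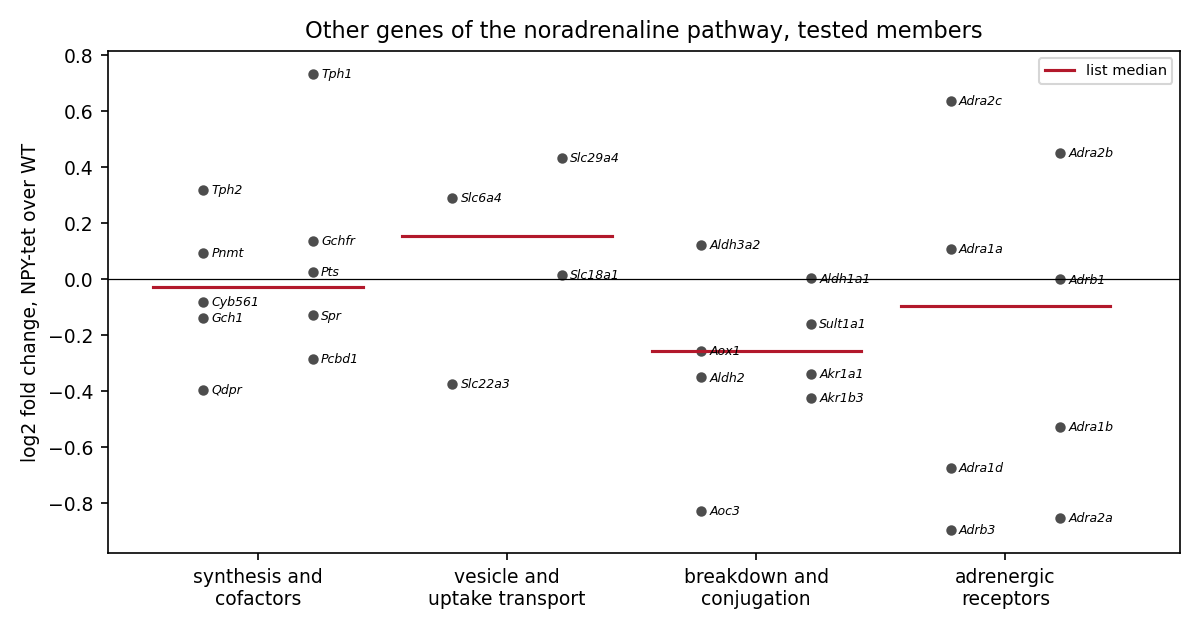
Log2 fold change of NPY-tet over wild-type (y axis) for tested genes of the 4 pathway lists (x axis), 1 point per gene with its symbol. The red line is the median over all tested genes of a list, some of which are not drawn. The medians are -0.028, 0.15, -0.25 and -0.095 from left to right, and Adrb3 is the lowest point at -0.90.

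For each of the 5 genes above 1 CPM, the genes whose log2 CPM followed it most closely over the 8 libraries were taken from 13615 others. These correlations are the highest of a large number and describe these libraries only. Both values of a pair come from the same library, with its depth, ribosomal RNA share and hair content, in all of which the libraries differed. For Th they were Mxi1 (Pearson r = 0.98), Nxpe3 (0.96) and Zcchc10 (0.96), and for Slc18a2 Socs2 (0.95), Mettl4 (0.95) and Cct4 (0.95). For Slc6a2 they were Rassf7 (0.97), Prodh (0.95) and S1pr5 (0.95). For Maoa they were Gskip (0.98), Nedd8 (0.97) and Chmp2a (0.96), and for Maob Ndufs5 (0.99), Atp5j2 (0.98) and Aamdc (0.98). None of the 7 genes was among the 3 closest of another, and neither was any gene of the lists described here.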

How the data were processed

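The members were given by name, and they and the gene lists (222 symbols, 1 not in the file) were chosen with earlier results of these data known. The authors deposited a table of unnormalised counts for each Ensembl gene, and the FPKM they deposited are, from their values, those counts scaled to gene length and to an effective library size. HISAT2 2.0.5, featureCounts 1.5.0-p3, DESeq2 1.20.0, CASAVA and mm39 are named per the submitters' processing notes, with no role given. The libraries were non-directional per the labels' protocols, so overlapping genes on opposite strands share reads. The genes overlapping a member, 1 each for Ddc and Slc18a2, had 0 counts. Columns were matched to mice by the sample titles. The library names of samples 3 to 8 carry a number higher by 1, with the same genotype.

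Genotypes were compared across all genes with edgeR 4.0.16 in R 4.3.3 (filterByExpr, TMM, robust quasi-likelihood F-test, two-sided, Benjamini-Hochberg threshold 0.05). Alternatives used DESeq2 1.42.0 and limma 3.58.1. SE is |log2 fold change| over the root of the F statistic. List sums use all members in the file. The total counts set the counting error. All 7 members were named, and from each pathway list the 3 genes with the highest mean FPKM, and from marker lists described by single genes the first or the first 2. Gata3, Slc6a3, Scn9a, Mcpt4, Cma1, Mrgprb1, Pdgfra, Dcn, Lum and marker genes called by DESeq2 were added after their values were seen. Some genes that the rule names are not reported here. The procedures were tested on simulated data. With 3 against 5 simulated libraries, edgeR recovered 2% of 50 planted 1.5-fold changes, 20% of 50 2-fold changes and 100% of 50 4-fold changes. Most planted changes of 1.5-fold and 2-fold were thus missed there. The simulated libraries had no ribosomal RNA division. Recovery at a spread as wide as that of Th was not tested. The coefficient of variation of Th was 73.9% among NPY-tet and 81.3% among wild-type mice. For Slc18a2, at 58.8% among NPY-tet mice, recovery was not tested either.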

Additional observations from a re-analysis of the deposited data

Results flagged for a closer look

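Dbh in wild-type skin had 1 library far from the others: wild-type replicate 1 stood at 0.127 CPM, which is 4 counts, against 0 to 0.0200 CPM in the other 4. Its gap to the nearest library was 0.842 of the group's range, above the limit of 0.71 for 5 values. For normally distributed values chance flags about 1 group in 20 in this way, and 9 values were looked at. The Dbh values are counts near 0 with ties, for which that rate does not hold. NPY-tet, with 3 mice, was not examined.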

How the results depend on the processing

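In none of the alternatives run did a member pass the adjusted threshold of 0.05. Th stayed above 0, and Maoa and Maob below 0, in 24 of 24 each. With ribosomal RNA class as a covariate Th rose to 1.96 (SE 0.54, edgeR adjusted p = 0.302) and Slc6a2 turned to -0.053. The value of Slc6a2 was -0.068 for rRNA-rich and -0.020 for rRNA-poor libraries. With 1 library left out Slc6a2 ranged from -0.0052 (without NPY-tet replicate 3) to 0.43 (without NPY-tet replicate 1). Slc18a2 turned to -0.53 for rRNA-poor libraries and ranged from -0.26 (without NPY-tet replicate 1) to 0.62 (without NPY-tet replicate 3). The Maoa to Maob log2 ratio moved to 0.67 and -0.35 for these 2 sets. The cause was not tested. The number of genes called was 1 by edgeR, 61 by DESeq2, 21 with no filter, 3 by limma-voom, 2 by limma on FPKM with either pseudocount, 2 without scaling and 11 with the covariate. It was 332 for rRNA-rich and 227 for rRNA-poor libraries, and 1 to 8 with 1 library left out (8 without NPY-tet replicate 3). Same-numbered mice had correlations of -0.041, -0.11 and 0.28 between their deviations from the group means, so numbers were not taken as pairs. With the replicate number as a block 1 gene was called, and the log2 fold change was 1.46 for Th and -0.54 for Maob (edgeR adjusted p = 0.491 and 0.324). With those 6 mice and no block, an alternative chosen after seeing the data, 2 were called. A Dbh to Th ratio with no pseudocount could not be computed. Counts of at most 13 per library for Ddc and 4 for Dbh limit what can be said of these genes.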
